A study of Rattus norvegicus with 18 samples.

Results

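The nuclear-encoded subunits of oxidative phosphorylation were followed in the livers of young and old rats kept on 3 dietary oils. They were taken as every gene whose symbol in the platform annotation starts with Nduf, Uqcr, Atp5 or Cox4 to Cox8, together with Sdha, Sdhb, Sdhc, Sdhd, Cyc1 and Cycs. A probe set, the unit that an array of this type measures, counted when it carried a single symbol, and the brightest one stood for its gene. This gave 87 of the 14217 genes measured, read from 97 probe sets: 40 of complex I, 4 of complex II, 8 of complex III, 19 of complex IV and 16 of complex V. Their mean levels ran from 4.17 to 12.18 on the log2(signal + 16) scale, with a median of 10.67 against 6.02 for all genes, and 8 of them lay under 6. Another 9 probe sets for such genes carried several symbols and were left out, so Cycs (cytochrome c), Atp5mc1, Atp5mc2, Cox7a2, Uqcrb, Ndufs5 and Ndufa10 were not analysed here.

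The animals were 18 male Wistar rats, given from weaning a semi-synthetic diet of 4% fat by weight whose only difference was the fat: virgin olive oil (mainly oleic acid), sunflower oil (mainly the n-6 linoleic acid) or fish oil (long-chain n-3 fatty acids). Livers were removed at 6 or 24 months, which gave 6 groups of 3 livers with 1 array each. Rats were caged in 3s, so each group may have been 1 cage. The tests measure the spread between these animals as housed, and a cohort or array run that went with age cannot be told apart from age.

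The respiratory chain passes electrons from NADH at complex I and from succinate at complex II through ubiquinone to complex III, and by cytochrome c to complex IV, where oxygen is reduced. Complexes I, III and IV pump protons, and complex V, the ATP synthase, lets them back to make ATP. Most subunits are coded in the nucleus and built together with a few coded in mitochondrial DNA, and liver, which runs gluconeogenesis, urea synthesis and fatty acid oxidation, is rich in them.

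Array medians lay between 15.5 and 18.4 at 6 months and between 18.5 and 20.6 at 24 months, on deposited signals whose trimmed mean was 99.1 to 99.3 on every array. The 3 young livers with sample number 2 deviated from their groups together (correlation across all genes 0.404 to 0.459), and the third old fish oil liver had the lowest array weight, 0.435. They stayed in, and counts without them stand beside the results. In bulk liver RNA, fewer cells of a type and less RNA per cell cannot be told apart. The labelled tissue was checked against 20 measured hepatocyte markers of 22 listed, whose mean log2 level was 12.40 to 12.90 in every array, and the 6 measured markers of skeletal and heart muscle were all under 6.

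In each of the 5 complexes the median gene was lower in old livers. Averaged over the oils, 20 of the 87 genes fell and 0 rose (limma adjusted p under 0.05), where 2.39% of all genes fell and 2.77% rose. Most of the 87 are bright, and of other genes at a mean log2 level of 9 to 13, 7.54% fell. At an unadjusted p under 0.05 there were 57, of which 55 were lower, where 21.3% of all genes passed that mark and 8.82% were lower. Of the 87, 79 had a difference below 0, with a median of -0.26 (log2, 24 minus 6 months), against 42.9% of all genes and a median of 0.03. By complex the falls were 11 of 40 in complex I (median -0.29), 1 of 4 in complex II (-0.26), 3 of 8 in complex III (-0.35), 1 of 19 in complex IV (-0.13) and 4 of 16 in complex V (-0.27). Whether the complexes differed from each other was not tested. All 20 genes that fell were lower in each of the 3 oils, which choosing them on the average favours.

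**Figure D1:**
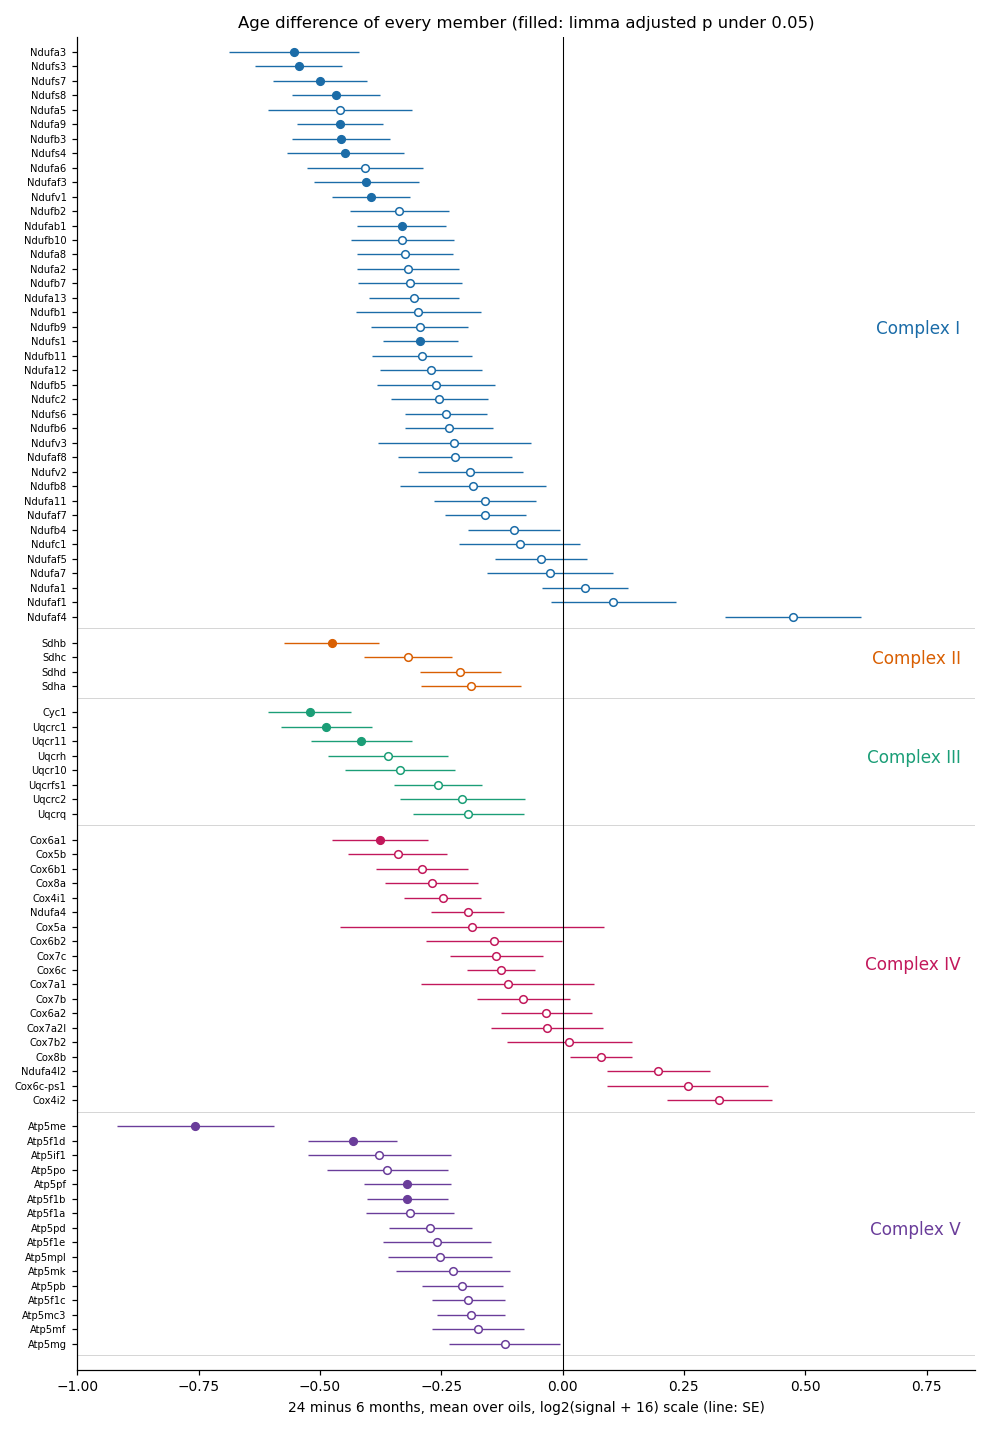
Age difference of each of the 87 genes, 24 minus 6 months averaged over the oils (x axis, log2 scale), grouped by complex and ordered by size, with a line for the standard error; filled points passed the limma threshold. The 20 filled points all lie left of 0, and Ndufaf4 (0.47) is the gene farthest to the right.

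How many genes passed depended on single livers. Without the first old olive oil liver 36 fell, and without the second old olive oil liver or the third young fish oil liver 11 did. The count was 12 without the first old sunflower oil liver, and 13 without any one of the third old livers of each oil, the first young sunflower and fish oil livers and the second young sunflower oil liver. Without the 3 sample number 2 livers at 6 months it was 14. With each array left out in turn and under each of 12 other ways of processing, 9 genes kept their call: Ndufs3, Ndufs7, Ndufs8, Ndufv1, Ndufb3, Sdhb, Cyc1, Uqcrc1 and Atp5f1d. Ndufa9 and Atp5me lost theirs only where all probe sets of a gene were averaged; the second probe set of each was dim, at a log2 level of 4.61 and 4.47. When each array was centred on bright genes, 14 genes fell and 2 rose, Ndufaf4 and Cox4i2.

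Promoters of the genes were read, on both strands, for 3 motifs long linked to respiratory genes. These were that of NRF1 (GCGCATGC), the ETS core bound by GABP (CCGGAAG) and that of YY1 (AAGATGGC). The RefSeq windows (GRCr8) ran from 250 bases before to 50 after each annotated start and were matched for 78 of the 87 genes. The NRF1 letters stood in 9 of them (11.5%, against 4.3% of the 11733 promoters of all genes measured), the ETS letters in 22 (28.2% against 15.1%) and the YY1 letters in 17 (21.8% against 4.73%). Any of them stood in 46.2% of the 78 and in 21.8% of all, and all 3 in Atp5me and Ndufa6 and in 0.0767% of all. Of the 17 genes that fell and had a promoter, 10 held at least 1. Ndufs3 and Atp5f1d, which had smaller limma p-values than Ndufs7 and Atp5me, were among those that held none. The shares of all promoters are not matched for brightness. A match of letters is a description and does not show that a factor binds. Shown are 1 gene that fell in each of complexes I, II, III and V, with the matched letters in capitals. Each of these genes holds a match, so they are not typical of the 17. Their windows are Ndufs7 at chr7:10110449-10110748 on the minus strand, Sdhb at chr5:158547684-158547983, Uqcrc1 at chr8:118467973-118468272 and Atp5me at chr14:1464610-1464909, these 3 on the plus strand.
Ndufs7: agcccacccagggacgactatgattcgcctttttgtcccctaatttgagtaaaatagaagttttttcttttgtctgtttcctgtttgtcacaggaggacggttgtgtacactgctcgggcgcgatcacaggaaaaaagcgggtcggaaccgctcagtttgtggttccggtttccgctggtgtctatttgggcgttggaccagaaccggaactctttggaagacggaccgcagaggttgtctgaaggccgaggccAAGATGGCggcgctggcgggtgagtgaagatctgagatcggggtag
Sdhb: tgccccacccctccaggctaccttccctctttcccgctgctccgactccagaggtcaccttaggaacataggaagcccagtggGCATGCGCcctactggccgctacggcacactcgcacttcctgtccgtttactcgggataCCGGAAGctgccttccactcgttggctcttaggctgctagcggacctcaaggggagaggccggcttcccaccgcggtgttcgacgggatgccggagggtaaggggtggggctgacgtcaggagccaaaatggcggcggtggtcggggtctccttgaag
Uqcrc1: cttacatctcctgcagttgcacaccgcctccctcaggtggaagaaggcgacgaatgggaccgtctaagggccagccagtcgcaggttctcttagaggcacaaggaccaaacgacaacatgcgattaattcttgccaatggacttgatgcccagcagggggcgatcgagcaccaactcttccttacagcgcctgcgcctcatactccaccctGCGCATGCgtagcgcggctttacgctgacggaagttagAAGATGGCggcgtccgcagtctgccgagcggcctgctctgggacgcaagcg
Atp5me: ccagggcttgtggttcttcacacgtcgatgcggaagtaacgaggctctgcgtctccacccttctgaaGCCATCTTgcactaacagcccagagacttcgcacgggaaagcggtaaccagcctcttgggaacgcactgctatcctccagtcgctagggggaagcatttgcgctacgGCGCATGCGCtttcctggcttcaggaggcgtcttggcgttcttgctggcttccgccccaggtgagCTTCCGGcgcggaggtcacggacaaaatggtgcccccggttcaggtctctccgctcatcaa
In Ndufs7 the YY1 letters began 4 bases past the start. In Sdhb the NRF1 letters (minus strand) began 167 bases and the ETS letters 108 bases before it. In Uqcrc1 the NRF1 letters began 39 bases before the start and the YY1 letters 1 base before it. Atp5me held the NRF1 letters on both strands in overlapping copies, 76 and 74 bases before the start, the YY1 letters (minus strand) 183 bases before and the ETS letters (minus strand) 11 bases before it.

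Complex I oxidises NADH, and its core subunits carry the flavin and the iron-sulphur clusters. Of the 6 core subunits measured, 5 fell: Ndufs3, Ndufs7, Ndufs8, Ndufv1 and Ndufs1. Ndufs3, of the arm that reaches into the matrix, had signals of 1238, 1499 and 1442 in young livers with olive oil, 1395, 1219 and 1552 with fish oil and 1276, 1294 and 1192 with sunflower oil. In the old livers they were 1109, 951 and 941 with olive oil, 877, 846 and 606 with fish oil and 970.4, 937 and 1096 with sunflower oil. Every old liver lay below every young one, and the third old fish oil liver was the lowest. The difference was -0.54 ± 0.0895 (standard error here and below), or 1.46-fold (adjusted p = 0.0034). Only Ndufs3 and Ndufa9 among the 87 had all 9 old livers below all 9 young ones, where 0.246% of all genes did.

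Ndufs7, which holds the last iron-sulphur cluster before ubiquinone and whose promoter is shown above, had signals of 1538 to 2319 in young livers (median 1985) and 1006 to 1789 in old ones (median 1415). The old olive oil liver at 1789 was the one that reached into the young range. Ndufs7 fell by 0.50 ± 0.0968 (adjusted p = 0.00854). Ndufs8, which carries 2 iron-sulphur clusters, ran from 809 to 1087 (median 889.7) in young and from 520.0 to 904 (median 654) in old livers. Its difference was -0.47 ± 0.0905 (adjusted p = 0.00854), and again 8 of 9 old livers lay below the lowest young one. Ndufv1, which binds NADH and the flavin, went from a median of 1149.7 (989 to 1412) to 873 (772 to 1006), a difference of -0.39 ± 0.0806 (adjusted p = 0.0104). Ndufs1, the largest subunit of the matrix arm, differed by -0.29 (adjusted p = 0.0366), with 6 of 9 old livers below the lowest young one. Ndufv2, the partner of Ndufv1, did not pass (-0.19, adjusted p = 0.332), and its signals of 1633 to 2627 in young and 1324 to 2385 in old livers overlapped widely.

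Accessory subunits surround this core. Of 28 measured, 5 fell (median of all 28, -0.30), with 27 differences below 0. Ndufa9, at the joint of the 2 arms, had signals of 798 to 1165 (median 914) in young and 589 to 743 (median 667) in old livers, with no overlap, and fell by 0.46 ± 0.0882 (adjusted p = 0.00838). Ndufb3, of the membrane arm, fell by 0.46 (2242 to 3419 in young, 1585 to 2441 in old livers, adjusted p = 0.0164). Ndufa3, also of the membrane arm, fell most in the complex, by 0.55 ± 0.134 (2159 to 3786 against 1434 to 2538, adjusted p = 0.0251). Ndufs4, an accessory subunit of the matrix arm, fell by 0.45 (adjusted p = 0.0423) and Ndufab1, the mitochondrial acyl carrier protein, by 0.33 (adjusted p = 0.0463). The accessory subunit with a difference above 0 was Ndufa1 (0.05, adjusted p = 0.823).

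Assembly factors do not stay in the finished complex, and among 6 of them 1 fell. Ndufaf3 and Ndufaf4 are partners in building the arm that meets ubiquinone, yet their values ran apart. Ndufaf3 fell by 0.40 (290.4 to 452 in young, 226 to 435 in old livers, adjusted p = 0.0401). Ndufaf4 had signals of 244, 128 and 183 in young livers with olive oil, 289.7, 224 and 339 with fish oil and 155, 153 and 227 with sunflower oil. The old livers had 325, 268 and 333 with olive oil, 205, 326 and 330.3 with fish oil and 282, 246 and 366 with sunflower oil. The young olive and sunflower oil livers lay below every old liver of their oil, while the fish oil livers of both ages overlapped. Its difference of 0.47 ± 0.14 missed the threshold (adjusted p = 0.0587) and passed it in 4 of the 12 other ways of processing. The other 4 factors, Ndufaf1, Ndufaf5, Ndufaf7 and Ndufaf8, ranged from -0.22 to 0.10 and none passed.

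Complex II, succinate dehydrogenase, also works in the citric acid cycle and has no subunit coded in mitochondrial DNA. Sdhb, its iron-sulphur subunit, had signals of 2554, 3208 and 2394 in young livers with olive oil, 2588, 2735 and 2872 with fish oil and 2046, 2949 and 2338 with sunflower oil. Old livers had 2318, 1828 and 2029.7 with olive oil, 1914, 1655 and 1480.3 with fish oil and 1652, 2089.7 and 2033 with sunflower oil. Of the old livers, 7 lay below the lowest young one, and Sdhb fell by 0.48 ± 0.0973 (1.39-fold, adjusted p = 0.0105). Sdhc, a membrane anchor, differed by -0.32 (adjusted p = 0.0534), the other anchor Sdhd by -0.21 (adjusted p = 0.154) and the flavoprotein Sdha by -0.19 (adjusted p = 0.311). Sdha signals overlapped most, at 1373 to 2064 in young and 1075 to 1761 in old livers.

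Complex III hands electrons from ubiquinol to cytochrome c. Cyc1, cytochrome c1, had the smallest adjusted p of the 87 genes. Its signals were 1824, 2071 and 1978 in young livers with olive oil, 2449, 1884 and 2309 with fish oil and 2049, 2109 and 1850.2 with sunflower oil. In old livers they were 1916, 1422 and 1404 with olive oil, 1327, 1309 and 1132 with fish oil and 1474, 1542 and 1399 with sunflower oil. The first old olive oil liver lay inside the young range and the other 8 below it. Cyc1 fell by 0.52 ± 0.0853 (1.44-fold, adjusted p = 0.00331). Uqcrc1, one of the pair of core proteins that face the matrix, ran from 1562 to 2370.3 in young and from 1105 to 1806 in old livers and fell by 0.49 ± 0.0944 (adjusted p = 0.00854). Uqcr11, a small membrane subunit, fell by 0.41 (adjusted p = 0.03). The remaining 5 did not pass: the Rieske iron-sulphur protein Uqcrfs1 (-0.26, adjusted p = 0.111), the second core protein Uqcrc2 (-0.21, adjusted p = 0.379), the hinge protein Uqcrh (-0.36, adjusted p = 0.0993), Uqcr10 (-0.34, adjusted p = 0.097) and Uqcrq (-0.19).

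**Figure D2:**
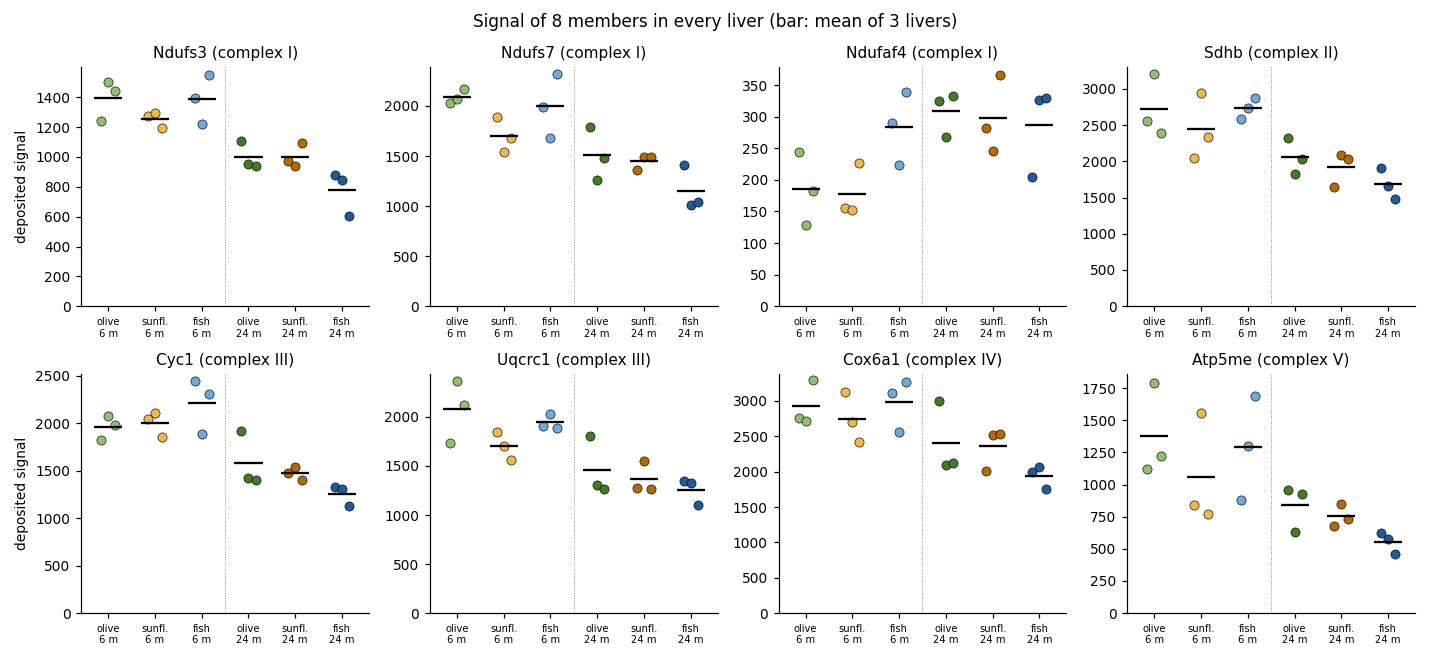
Deposited signal (y axis, linear, from 0) of 8 genes in every liver, by oil and age (x axis), with a bar at the mean of each group of 3. Old livers of Ndufs3 sit between 606 and 1109, all below the young ones at 1192 to 1552, while Ndufaf4 runs from 128 to 339 in young and from 205 to 366 in old livers.

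Complex IV, cytochrome c oxidase, has its catalytic centres in subunits coded by mitochondrial DNA, and the nuclear subunits surround them. Of 10 subunits used in most tissues (Ndufa4 counted here, since it sits in complex IV), all 10 differences were below 0, with a median of -0.22, and Cox6a1 alone fell. Cox6a1, the form of subunit 6A found in liver, had signals of 2753, 2722 and 3298 in young livers with olive oil, 3115, 2563 and 3268 with fish oil and 3129, 2699 and 2420.5 with sunflower oil. Old livers had 3002, 2096 and 2125 with olive oil, 1998, 2062 and 1751 with fish oil and 2014, 2517 and 2539 with sunflower oil. Of the old livers 6 lay below the lowest young one, and the first old olive oil liver lay well inside the young range. The fall was 0.38 ± 0.0983 (adjusted p = 0.036), and it was not called with a pseudocount of 1, after quantile normalization or with 9 of the 18 arrays left out in turn. Cox5b (-0.34, adjusted p = 0.0623), Cox6b1 (-0.29, adjusted p = 0.0845), Cox8a (-0.27, adjusted p = 0.114) and Cox4i1 (-0.25, adjusted p = 0.0812), the common form of subunit 4, did not pass.

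Cox5a could hardly be read. Its single-symbol probe set had signals of 70.5 to 265 in young and 75 to 179.8 in old livers, its difference was -0.19 ± 0.272, and a further probe set carried its symbol with a second one. The 7 isoforms known from other tissues stayed dim, and their median difference was 0.01. The heart and muscle forms Cox6a2, Cox7a1 and Cox8b and the testis forms Cox6b2 and Cox7b2 reached no signal above 23.7 in any liver. Cox4i2, known from lung, had signals of 0.5 to 6.8 in young and 3.3 to 15.3 in old livers (0.32, adjusted p = 0.0939), all of them under the pseudocount of 16. Ndufa4l2, a hypoxia-induced relative of Ndufa4, ran from 1.5 to 18.8 and from 1.6 to 22.6 (0.20, adjusted p = 0.298). With these forms and 2 other genes counted, the median of all 19 was -0.13, against -0.22 for the 10 common subunits. Cox7a2l, which joins complexes into supercomplexes, differed by -0.03, and the entry Cox6c-ps1 by 0.26.

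Complex V makes ATP as its rotor turns in the head. All 16 genes had differences below 0 and 4 fell. Atp5me, subunit e, which holds pairs of the enzyme together in the membrane, fell most of all 87 genes. Its signals were 1118, 1791 and 1223 in young livers with olive oil, 882, 1303 and 1689 with fish oil and 840.0, 1560.0 and 770.1 with sunflower oil. Old livers had 960.4, 628 and 929 with olive oil, 623, 578 and 458 with fish oil and 679, 853 and 734 with sunflower oil. Young livers ran widely, from 770.1 to 1791, and 6 of 9 old ones lay below the lowest of them. The fall was 0.76 ± 0.162 (1.69-fold, adjusted p = 0.0132). Atp5mg, subunit g, its partner in the membrane, differed by -0.12 (adjusted p = 0.596) and by 0.01 after quantile normalization.

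In the head and central stalk, Atp5f1d, the delta subunit, fell by 0.43 ± 0.0914 (1619 to 2252 in young, 1025 to 1867 in old livers, adjusted p = 0.0126). Atp5f1b, the catalytic beta subunit, fell by 0.32 (4529.9 to 5528 against 3017 to 4738, adjusted p = 0.0358). In both genes 8 of 9 old livers lay below the lowest young one. Atp5f1a, the alpha subunit, had the same difference of -0.32 and missed the threshold (adjusted p = 0.0534). In the peripheral stalk Atp5pf, coupling factor 6, fell by 0.32 (adjusted p = 0.0494), and Atp5po, which ties the stalk to the head, differed by -0.36 (adjusted p = 0.102). Atp5if1, the inhibitor of the enzyme, differed by -0.38 ± 0.147 (adjusted p = 0.148), with signals of 135 to 247 in young and 75.5 to 207 in old livers.

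Taken as the mean log2 level of the 71 subunits (assembly factors, regulators, tissue isoforms and Cox6c-ps1 left out), young livers averaged 10.89 ± 0.119 (SD, n = 9) and old livers 10.60 ± 0.204 (SD, n = 9). The range was 10.74 to 11.09 in young and 10.28 to 10.97 in old livers, and 7 of 9 old livers lay below the lowest young one. The first old olive oil liver was the highest old one, inside the young range in complexes I, III, IV and V, and the third old fish oil liver was the lowest. Group means, young then old, were 10.91 ± 0.149 and 10.72 ± 0.224 with olive oil, 10.92 ± 0.171 and 10.41 ± 0.131 with fish oil, and 10.85 ± 0.0223 and 10.67 ± 0.111 with sunflower oil (SD, n = 3). Complex by complex the levels differed by -0.30 (I), -0.30 (II), -0.35 (III), -0.23 (IV) and -0.29 (V). These are descriptions with no test, since genes are not replicates.

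**Figure D3:**
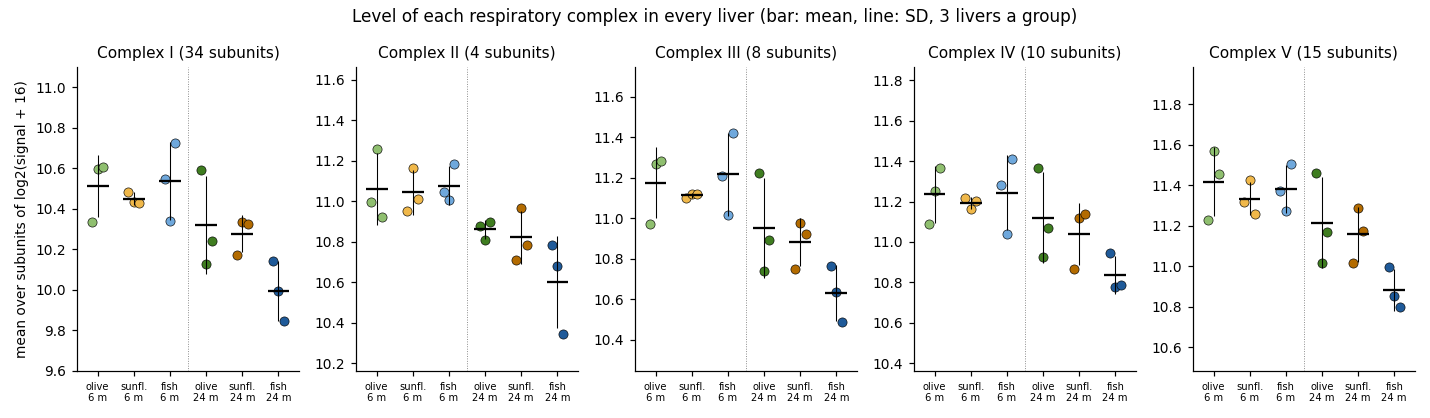
Mean log2(signal + 16) over the subunits of each complex (y axis, own range per panel) in every liver, by oil and age (x axis); bars are means and lines SDs of 3 livers. In complex I the young livers lie between 10.33 and 10.72 and the old ones between 9.84 and 10.59.

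Bright genes as a whole were a little lower in old livers. Of 1538 other genes with a mean log2 level of 9 to 13, 65.1% had a difference below 0, with a median of -0.10, and 7.54% fell. Of the 68 respiratory genes in that range, 98.5% were below 0, with a median of -0.29, and 18 (26.5%) fell. Set against the median of other genes in its own 1-unit bin of brightness, 73 of the 87 were below it, and the median gap was -0.16. By complex the gap was -0.17 (I), -0.13 (II), -0.21 (III), -0.07 (IV, with its dim isoforms counted) and -0.16 (V).

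**Figure D4:**
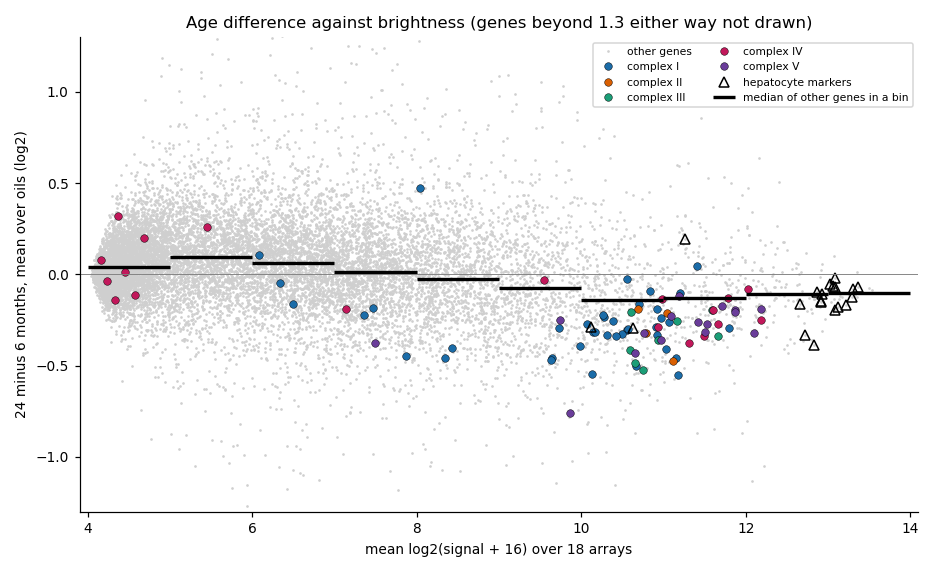
Age difference averaged over oils (y axis, log2) against mean log2(signal + 16) (x axis) for the genes of complexes I to V (colours), hepatocyte markers (triangles) and other genes (grey), with the median of other genes in each 1-unit bin as a bar. Respiratory genes at 9 to 13 have a median of -0.29 and other genes there one of -0.10.

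Hepatocyte markers were lower too, by less in the median. They were also brighter, at a median log2 level of 12.98 against 10.67 for the respiratory genes. The dimmest markers were Asgr2 (level 10.11, difference -0.29), Asgr1 (level 10.63, difference -0.29) and Hnf4a (level 11.26, difference 0.20). Whether change is compressed at high brightness was not tested, nor was its part in values taken relative to these markers. Of the 20 measured, 19 had differences below 0, with a median of -0.13, and 1 fell, Apoa1, the main protein of HDL (-0.39, adjusted p = 0.0388). Their summed signal ran from 142754 to 171938 in young and from 122605 to 159938 in old livers. Relative to the hepatocyte marker mean of each array the subunits differed by -0.16 with age, and 1 of 9 old livers lay below the lowest young one. Relative to the bright other genes they differed by -0.20, with 5 of 9 below. The median of complex IV, with its isoforms, turned to 0.01 when taken against the hepatocyte markers. Of 9 macrophage markers 1, Cd68, rose (0.72, adjusted p = 0.0439), where 2.77% of all genes rose. Differences above 0 were seen in 8 macrophage markers, with Cd14 at -0.14 and a median of 0.38. Their summed signal ran from 2521.6 to 3586.3 in young and from 2812.0 to 5847.6 in old livers, and the dimmest of them, Adgre1, had a mean log2 level of 6.36. T and NK cell markers, all 10 under a log2 level of 6, had a median of 0.23. Cd4 (0.55) alone passed limma's threshold, and Prf1 (-0.18) alone was below 0. The summed signal of the 10 was 132.5 to 203.4 in young and 118.7 to 494.9 in old livers. The part of these shifts in the respiratory genes was not tested.

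Within each oil most genes were lower in old livers, 72 of 87 with olive oil, 72 with sunflower oil and 79 with fish oil. Of all genes 46.8%, 47.7% and 42.4% were. The median of the 87 was -0.16 with olive oil, -0.17 with sunflower oil and -0.45 with fish oil. Over all genes it was 0.02, 0.01 and 0.05. No gene passed limma's threshold with olive oil (0.141% of all genes passed) or with sunflower oil (0%). With fish oil 7 fell (0.471% of all genes), namely Cyc1, Ndufs3, Ndufs7, Atp5f1d, Ndufs8, Sdhb and Atp5me. At an unadjusted p under 0.05 there were 13 of 87 with olive oil, 4 with sunflower oil and 59 with fish oil, where 10.05%, 7.64% and 16.95% of all genes passed that mark. All 3 old livers lay below all 3 young ones for 8 genes with olive oil, 23 with sunflower oil and 60 with fish oil, where 5.73%, 6.56% and 8.38% of all genes did. Medians of some marker lists of other cells also varied by oil. The macrophage median was 0.49 with olive oil, 0.08 with sunflower oil and 0.83 with fish oil. That of T and NK cells was 0.12, -0.14 and 0.62 in the same order, and that of stellate cells 0.03, -0.28 and 0.41. The 8 stellate markers were split over the average of oils, with 4 below 0, Col3a1 at -0.56 and Vim at 0.56. Of these 8, 4 were under a log2 level of 6. Endothelial medians were -0.17, -0.09 and 0.21, erythroid ones 0.34, -0.34 and 0.06, and hepatocyte ones -0.13, -0.11 and -0.15. The part of such marker shifts in the age differences within each oil was not tested.

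In fish oil livers Cyc1 fell by 0.80 ± 0.148 (adjusted p = 0.026), against -0.32 with olive and -0.44 with sunflower oil. Ndufs3 fell by 0.84 ± 0.155 (adjusted p = 0.026), against -0.47 and -0.32, and Atp5me by 1.16 (adjusted p = 0.0467), against -0.70 and -0.41. Whether the age difference itself differed between the oils was tested with limma's F test, and no gene of the 87 passed, nor any of the 14217 (785 of them at an unadjusted p under 0.05). At an unadjusted p under 0.05 there was 1, the dim Ndufa4l2 (limma adjusted p = 0.849), followed by Uqcrfs1 and Atp5f1d. So the larger falls with fish oil are values side by side and not a shown difference. The fish oil calls also rested on few livers: 0 were left without the third old, the first young or the third young fish oil liver, 1 without the second old one, and 15 without the first old one. Without the first old olive oil liver, which only enters through the shared spread, 11 passed, and without each of 9 further livers 4 did. Fitted on the fish oil livers alone, 0 passed.

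**Figure D5:**
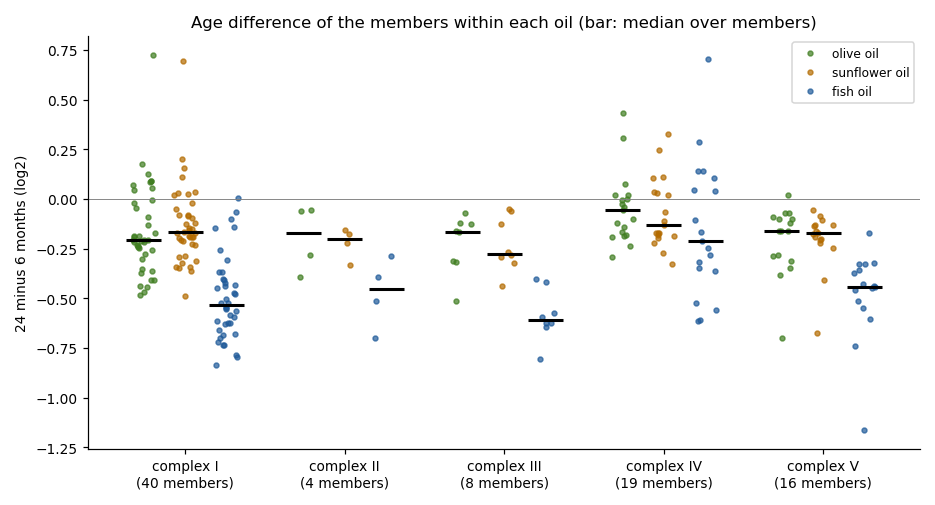
Age difference within each oil (y axis, log2, 24 minus 6 months) for every gene of each complex (x axis), coloured by oil, with a bar at the median over genes. All 8 genes of complex III lie below 0 with each oil, and the median of all 87 is -0.45 against -0.16 with olive oil and -0.17 with sunflower oil.

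With olive oil the smallest p-values were those of Uqcrc1 (-0.51), Ndufv1 (-0.44) and Ndufs3 (-0.47), and with sunflower oil those of Cyc1 (-0.44), Ndufaf4 (0.70) and Atp5if1 (-0.68). The adjusted p-values of these 6 lay between 0.296 and 0.505.

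The oils were also compared directly. None of the 87 genes passed limma's threshold between any pair of oils, averaged over ages or at either age, where 0.0141% of all genes passed for fish against olive oil averaged over ages and 0% in the other 8 comparisons. Averaged over ages, fish minus olive oil had a median of -0.14, 77 of 87 below 0 and 6 genes at an unadjusted p under 0.05, where 5.81% of all genes passed that mark. Among them were Cox8a (-0.31), Ndufa1 (-0.28) and Ndufa8 (-0.30), a small cysteine-rich subunit of complex I. Fish minus sunflower oil had a median of -0.09 and 0 such genes (6.76% of all genes), and its smallest p-values were those of Atp5mpl, Ndufs6 and Ndufa6. Sunflower minus olive oil had a median of -0.05 and 1 (4.25% of all genes), Ndufa4l2, followed by Uqcrc1 and Ndufs7.

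The oils were then set side by side at each age. In young livers fish minus olive oil had a median of 0.01 with 39 of 87 below 0 and 2 genes at an unadjusted p under 0.05, and fish minus sunflower oil had 0.06 with 18 below 0 and 1 such gene, where 4.11% and 4.03% of all genes passed that mark. In old livers fish minus olive oil had a median of -0.29 with 81 below 0 and 18 such genes, and fish minus sunflower oil -0.24 with 77 below 0 and 11, where 7.98% and 9.21% of all genes did. Both use the same old fish oil livers. Cox8a, a small complex IV subunit of most tissues, was at -0.50 and -0.42 in these 2 comparisons, Ndufa8 at -0.53 against olive oil and Ndufb8, of the membrane arm, at -0.75 against sunflower oil. Sunflower minus olive oil had 1 gene at an unadjusted p under 0.05 at each age, Ndufa4l2, which was dim. Ndufaf4 was at 0.60 against olive and 0.63 against sunflower oil in the young fish oil livers. The other genes with the smallest p-values were Ndufaf1 (0.40) for young fish minus olive oil, Ndufs8 (0.24) and Ndufaf3 (0.28) for young fish minus sunflower oil, and Ndufa4 (-0.34) for old fish minus olive oil. For sunflower minus olive oil they were Ndufs7 (-0.30) and Uqcrc1 (-0.28) in young and Atp5if1 (-0.32) and Ndufa4 (-0.15) in old livers.

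The rest of the mitochondrial machinery was read from lists of genes outside the rule, averaged over the oils. Of all genes, 2.39% fell and 2.77% rose. Among other genes of like brightness, 2.23% fell at a log2 level of 6 to 7 and 9.26% at 10 to 11. Whether any list went beyond these shares was not tested. Mitochondrial ribosome proteins, which translate the subunits coded in mitochondrial DNA, had 13 of 73 lower and 0 higher, with a median of -0.24, led by Mrpl2 (-0.52), Mrpl58 (-0.51) and Mrpl23 (-0.52). In the citric acid cycle and pyruvate dehydrogenase 4 of 15 fell, among them Idh2, the mitochondrial NADP-linked isocitrate dehydrogenase (-0.78 ± 0.132, adjusted p = 0.0042), Idh3b (-0.38), a subunit of the NAD-linked enzyme, and Idh3g (-0.37), with a median of -0.21. The first enzyme of the cycle, Cs, was at 0.14 and did not pass. Assembly factors of the chain outside the rule had 3 of 43 lower, Surf1 and Cox14, which build complex IV, and Oxa1l, which inserts proteins into the inner membrane, with a median of -0.14. Slc25a11, the oxoglutarate carrier, was the 1 of 10 carriers and pores that fell, and Coq6 the 1 of 12 genes of coenzyme Q synthesis. None of 12 genes that feed electrons in elsewhere passed limma's threshold. At an unadjusted p under 0.05 there were 4 of them, 3 lower and Gpd2 higher (0.76). None of 17 genes of mitochondrial DNA upkeep and expression passed the threshold, with 3 at the unadjusted mark, all lower. Of all genes 21.3% passed the unadjusted mark and 8.82% were lower. Of the subunits coded in mitochondrial DNA, COX1 (0.01) and COX2 (-0.11) were measured, and neither passed limma's threshold, with 0 at an unadjusted p under 0.05.

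Among 13 transcriptional regulators of respiratory genes, 1 fell and 1 rose, where 2.39% of all genes fell and 2.77% rose. Ppargc1a, the coactivator PGC-1 alpha, fell by 0.94 ± 0.138 (adjusted p = 0.0018). All 9 of its old livers lay below all 9 young ones, where 0.246% of all genes did so. Gabpb1, a subunit of the ETS factor GABP, rose by 0.44 (adjusted p = 0.0198), while its DNA-binding partner Gabpa was at 0.11. The others did not pass: Sirt3 -0.35, Yy1 0.26, Pprc1 0.36, Nrf1 0.21, Perm1 -0.17, Creb1 0.33, Esrra -0.07, Hcfc1 0.07, Ppargc1b 0.06 and Ppara -0.07. Nrf1, Perm1, Ppargc1a, Ppargc1b, Pprc1 and Ppara were dim, at mean log2 levels under 6. The calls among these regulators and the gene lists were not followed under the other ways of processing or with arrays left out.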

How the data were processed

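The values were the authors' deposited intensity of each probe set on 18 arrays, 1 per liver. RMA and Partek stand in the submitters' processing notes, but the deposited intensities are linear and share a trimmed mean and no distribution, so how they were made is not known from these sources. As 47.3% of values were below the pseudocount of 16, log2(signal + 16) understates the change of dim genes, and the number of livers limits the precision. Of 31042 probe sets, 20826 had 1 symbol. No array was left out.

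Group means were fitted over all arrays and all 14217 genes with limma 3.58.1 in R 4.3.3, with 12 residual and 4.32 prior degrees of freedom, with Benjamini-Hochberg adjustment over all genes. The fit was tested on simulated data. The rule for named genes took in each complex the 5 smallest p-values and both extremes, every gene that passed, the tissue isoforms and, where none passed, the 3 smallest p-values. It also took up to 3 genes a list and all regulators. The members, lists and rules were chosen with earlier results of these data known. Where several probe sets measured a member (9 genes), the alternatives averaged them or fitted all probe sets apart. Dimmer probe sets of Atp5po (0.31), Ndufa7 (0.31), Atp5if1 (0.13), Ndufaf7 (0.06), Atp5me (0.03) and Ndufa9 (0.01) had age differences above 0. All of these lay under a log2 level of 6. Those of Ndufv3, Sdhd and Uqcrc2 and another of Atp5if1 were below 0. Alternatives were another pseudocount, filter, normalization, centring, probe set rule, replicate block, array weights, prior, group choice, and leaving out arrays. The promoters and motif counts used Python 3.11.15 and pandas 2.3.3.

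Same-numbered arrays at 6 months deviated together (correlations of 0.153 to 0.459 over 9 pairs), but those at 24 months (-0.114 to 0.203) and across ages (-0.082 to 0.180) did not all do so. The numbers were therefore taken to pair the young livers only. The main fit used no pairing, so its comparisons treat same-numbered young livers as independent. Pairing entered only the alternative fits with a block.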

Additional observations from a re-analysis of the deposited data

How the results depend on the processing

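The medians of all 87 genes and of complexes I, II, III and V stayed below 0 under every alternative run. That of complex IV, with its 7 dim tissue isoforms counted, turned to 0.011 relative to the hepatocyte markers. Its 10 common subunits alone, at a median of -0.22 before this step, were not run that way. The 20 falls with age became 11 with a pseudocount of 1, 13 after quantile normalization and 38 with array weights (11 to 36 with each array left out). The 7 falls with fish oil became 0 with a pseudocount of 1 or with only the groups compared, 2 after quantile normalization, 4 with all probe sets fitted apart or without the sample number 2 arrays at 6 months, 12 with a pseudocount of 64 and 28 with array weights, 27 lower and 1 higher (0 to 15 with each array left out). The cause of these moves was not tested. With the replicate number as a block, 22 genes fell and 1 rose, Ndufaf4, 19 of the falls being shared with the 20, and 6 fell with fish oil; paired over the young livers alone, a fit added after seeing the data, 0 passed between oils. No diet count left 0. Atp5mg turned to 0.0141 after quantile normalization and the dim Cox6a2 to 0.0213 with centring on bright genes (-0.0767 to 0.0276 with each array left out). The dim Cox7b2 turned to -0.0453 after quantile normalization, -0.0273 with array weights and -0.0281 without the sample number 2 arrays (-0.0359 to 0.0878 with each array left out). Over the refits of 39 named genes, 977 kept direction and call, 134 lost the call, 38 gained it and 14 turned. With 3 livers a group, differences of dim genes near the pseudocount cannot be read.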
